A study of Mus musculus with 28 samples.

Results

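The intronic regions described here are stretches of lung epithelial chromatin that the authors listed as opened in Yap active cells and that HOMER, an annotation program, placed inside an intron. They were taken as the rows of the authors' opened list whose annotation begins with intron, and numbered 1968 of 6017 opened regions (32.7%) and of 8617 regions in the 4 lists of the series. The other intronic regions numbered 669 of 1392 closed in the Yap active line, 227 of 532 opened in the Yap deleted line and 333 of 676 closed in the Yap deleted line. The members were thus chosen by their accessibility in the ATAC-seq contrast of Yap active against control libraries, the same contrast that gave the scores and peak overlaps below, so these values describe the choice and carry no test.

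Mice of the Yap active line carried Stk3 flox/flox and Stk4 flox/flox alleles with the SftpcCreERT2 driver, a tamoxifen-dependent Cre under a surfactant protein C promoter that is active in alveolar type 2 (AT2) cells. Their controls carried the same floxed Stk3 and Stk4 alleles without the driver. Mice of the Yap deleted line carried Yap flox/flox with SftpcCreERT2, and their controls Yap flox/flox alone. Yap was activated or deleted at postnatal day 3, lung cells were collected at postnatal day 14 by EPCAM selection after depletion of CD45, CD16/32, Ter119, CD90.2, CD271 and CD31 positive cells, and ATAC libraries were made from 50000 cells. RNA libraries numbered 6 Yap active against 4 controls and 5 Yap deleted against 4 controls. ATAC libraries numbered 3 Yap active against 3 controls and 2 Yap deleted against 1 control. The labels do not say whether libraries came from separate animals, so the p-values measure only the spread between these libraries, which may be technical.

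ATAC-seq reads accessible DNA by the places where a transposase can insert. Open chromatin inside introns can hold enhancers, alternative promoters or the downstream part of a promoter. Stk3 and Stk4 encode the Hippo kinases that lead to phosphorylation and cytoplasmic retention of Yap, and nuclear Yap binds DNA through the TEAD factors, often at enhancers. In the alveolus Yap is known for its part in the formation of alveolar type 1 (AT1) cells from AT2 cells.

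The region-size column of the opened list names 2 comparisons for every one of the 6017 regions, both against a control of the same name, and which libraries these names stand for is not given. The labels tie the list to Yap active ATAC libraries 2 and 3. The score has no stated scale and serves here only to rank regions within the list. The highest scores lay at the first intron. The 10 highest-scoring intronic regions all lay in intron 1 of their host gene, 197 to 869 bp from the nearest transcription start, and all overlapped a peak in both Yap active peak lists and in neither control list. Their host genes included Nmt2, an N-myristoyltransferase (score 421.5), Lratd1 (414.1), Xpo1, the main nuclear export receptor (403.85), Ppp2r1a, the scaffold subunit of protein phosphatase 2A (373.4), Kat6b, a histone acetyltransferase (353.85), Slc39a10, a zinc transporter (337.75), Ypel5 (318.25), Trio (304.25) and Rrbp1 (304.2).

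The 4 highest-scoring regions reached back over the promoter of their host. The whole of the 250 bases upstream of the host gene's RefSeq start lay inside the region for 218 of the 1968 intronic regions, so the intron label of HOMER, which goes by the region's midpoint, covers part of the promoters opened in the same list. The upstream windows of the 4 highest-scoring hosts and of Timp3, an inhibitor of metalloproteinases on the AT1 list, are printed 5′ to 3′ on the gene's strand from RefSeq, build GRCm38.p6, to show what DNA these intronic regions contain. Capitals mark every match, on either strand, to the 9 motifs searched: GGAATG (TEAD), TTGGCA (NFI, one arm of its site), GGGNGTGG (KLF), TGANTCA (AP-1), TGTTTAC (FOXA), CTCAAG (NKX2-1), TTGCNNAA (CEBP), CCGGAAGT (ETS) and AACNGGTT (GRHL). Matches may overlap, as a CTCAAG and a GGGNGTGG match do in the Nmt2 window.
Nmt2, chr2:3283962-3284211, + strand: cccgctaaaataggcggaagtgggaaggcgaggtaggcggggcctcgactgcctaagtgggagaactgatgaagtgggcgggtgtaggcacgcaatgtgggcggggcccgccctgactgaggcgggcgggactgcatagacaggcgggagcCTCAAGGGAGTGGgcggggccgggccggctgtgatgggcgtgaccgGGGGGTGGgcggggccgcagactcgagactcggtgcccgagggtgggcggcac
Lratd1, chr12:14152039-14152288, - strand: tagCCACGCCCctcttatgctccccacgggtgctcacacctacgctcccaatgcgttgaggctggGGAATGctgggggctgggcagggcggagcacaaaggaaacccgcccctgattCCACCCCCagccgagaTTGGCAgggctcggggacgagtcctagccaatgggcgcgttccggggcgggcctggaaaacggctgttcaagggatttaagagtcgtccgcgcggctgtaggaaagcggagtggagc
Xpo1, chr11:23255791-23256040, + strand: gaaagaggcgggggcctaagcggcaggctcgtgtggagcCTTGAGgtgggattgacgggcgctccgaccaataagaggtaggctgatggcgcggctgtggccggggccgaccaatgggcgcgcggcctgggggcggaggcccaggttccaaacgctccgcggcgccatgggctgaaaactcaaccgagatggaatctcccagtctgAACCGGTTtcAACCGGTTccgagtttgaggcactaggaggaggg
Ppp2r1a, chr17:20945204-20945453, + strand: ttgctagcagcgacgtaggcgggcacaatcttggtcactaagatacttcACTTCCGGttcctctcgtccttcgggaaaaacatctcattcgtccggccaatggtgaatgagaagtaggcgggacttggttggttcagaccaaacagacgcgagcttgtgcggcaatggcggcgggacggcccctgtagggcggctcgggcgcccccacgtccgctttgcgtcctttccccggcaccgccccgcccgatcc
Timp3, chr10:86300162-86300411, + strand: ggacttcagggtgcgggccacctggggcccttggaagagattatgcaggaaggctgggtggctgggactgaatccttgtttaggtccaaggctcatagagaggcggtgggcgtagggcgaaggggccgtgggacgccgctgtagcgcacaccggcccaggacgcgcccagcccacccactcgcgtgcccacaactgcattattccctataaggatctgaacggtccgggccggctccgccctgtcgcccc

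The 5 windows had 61.6% to 70.8% G+C. The Nmt2 window held 2 KLF matches and 1 NKX2-1 match, and the Lratd1 window 2 KLF, 1 TEAD and 1 NFI match. The Xpo1 window held 2 GRHL matches and 1 NKX2-1 match, the Ppp2r1a window 1 ETS match and the Timp3 window no match. A match is a description of letters and not a site.

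Across the 218 windows the median G+C content was 61.4%, against 64.0% in 1609 windows inside opened promoter regions and 52.0% in all 27025 promoters of the RefSeq table. The KLF letters stood in 21.6% of the 218 windows, in 24.6% of the opened promoter windows and in 15.8% of all promoters. The ETS letters stood in 5.05%, 4.41% and 2.93% in the same order, and the GRHL letters in 2.29%, 1.43% and 1.71%. For the TEAD letters the shares were 10.1%, 10.4% and 12.6%, for AP-1 4.13%, 3.73% and 6.87%, for CEBP 5.96%, 5.90% and 9.55%, and for FOXA 1.83%, 1.49% and 3.09%. The NFI letters stood in 12.4%, 8.27% and 12.5% and the NKX2-1 letters in 14.2%, 10.4% and 13.6%. Windows richer in G+C hold G-rich letters such as those of KLF more often by base composition alone, and the part of composition in these shares was not tested. The DNA of intronic regions away from promoters was not analysed here for want of a genome sequence.

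Distance from the nearest transcription start divided the members into a promoter-proximal and a distal kind. Over all 1968 members the distance had a median of 10760.5 bp, with quartiles of 864.5 and 44679.8 bp. Members within 1 kb numbered 516 (26.2%), between 1 and 5 kb 259, between 5 and 10 kb 184, between 10 and 50 kb 571, between 50 and 100 kb 226 and beyond 100 kb 212. The nearest member lay 102 bp from a start, because HOMER calls a region promoter-TSS when its midpoint is closer, and opened promoter-TSS regions had a median distance of 97 bp and reached 985 bp. The 516 proximal members had a median score of 61.35 and a median length of 1280 bp, whereas in the 5 more distant bins median scores were 26.1 to 27.975 and median lengths 903 to 961 bp. Intron 1 held 492 of the 516 (95.3%) and an annotated CpG island 275 (53.3%), against 35 (15.5%) and 3 (1.33%) of the 226 members at 50 to 100 kb.

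**Figure D1:**
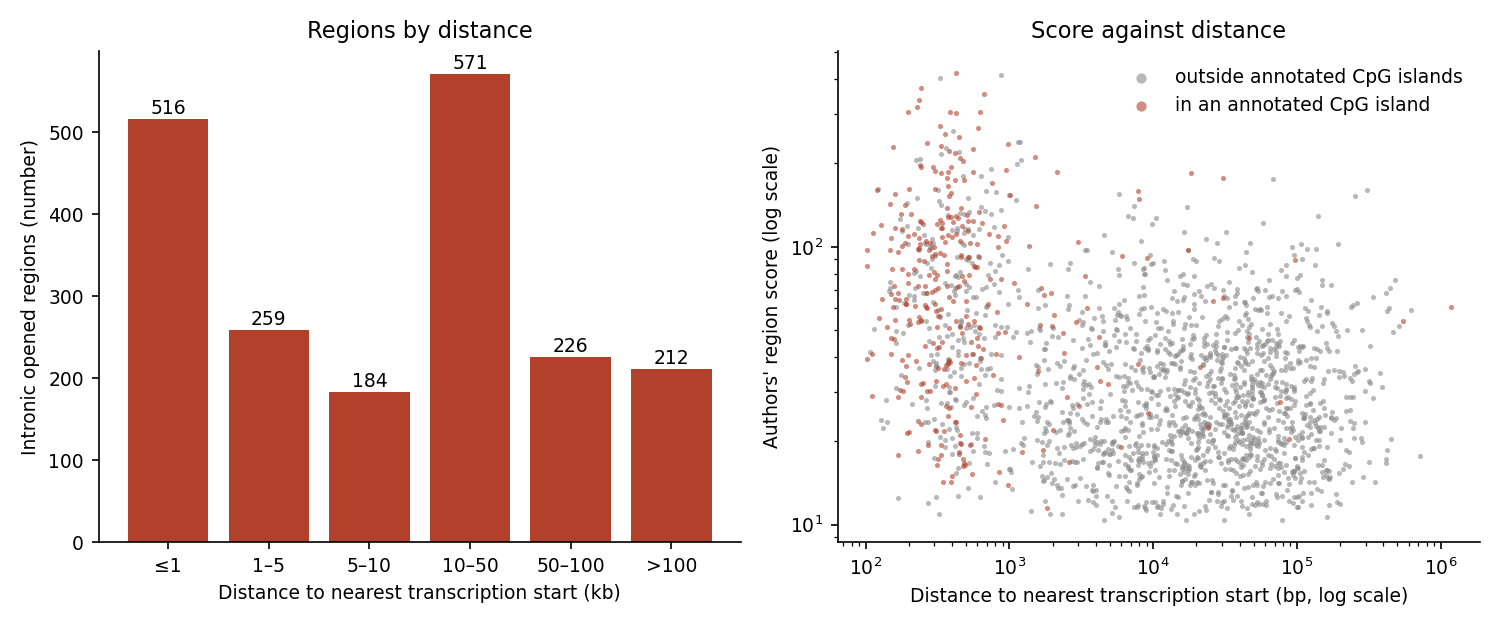
Left, number of intronic opened regions by distance from the nearest transcription start in kb. Right, the authors' score of each of the 1968 regions against that distance in bp, both axes logarithmic, with regions in an annotated CpG island in red. Scores above 200 all lie within 5 kb of a start, and the distal regions form a band with median scores between 26.1 and 27.975.

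Over the whole class, intron 1 held 997 regions (50.7%, median score 38.7), intron 2 held 290 (median 28.55), intron 3 held 155 (26.25) and later introns 526 (26.625). Scores of the intronic members ranged from 10.39 to 421.5 with a median of 31.575, close to the 29.15 of the 1585 opened intergenic regions and below the 77.575 of the 1780 opened promoter regions. Among the finer annotations, 327 members (16.6%) lay in a CpG island and 197 (10.01%) in a repeat, of which 62 were SINE, 55 LTR and 31 LINE copies. No RefSeq miRNA hairpin lay whole inside a member (0 of 1968).

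The 4 deposited peak lists differed in how much of the class they held. An overlap of at least 1 bp with a peak was found for 1798 members (91.4%) in Yap active list R1 and 520 (26.4%) in Yap active list R2, against 4 (0.203%) in control list R1 and 267 (13.6%) in control list R2. The labels tie Yap active R1 to the same libraries 2 and 3 as the opened list and control R1 to control library 2, so these shares repeat the choice of the members. Yap active R2 is tied to Yap active library 1 and control R2 to control libraries 1 and 3, which the labels do not tie to the opened list, though they do not say that these libraries were left out of it. In that pair the Yap active list held 26.4% of the members with 53714 peaks over 7.42 Mb, and the control list 13.6% with 28418 peaks over 4.29 Mb. The 669 closed intronic regions overlapped the same pair in 2.84% and 2.54%. The sources used here do not give how many libraries stand behind each list or what it was called against, so the shares carry no test.

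The pair set proximal and distal members apart. Within 1 kb, 42.4% overlapped Yap active R2 and 8.72% control R2, and beyond 1 kb 20.7% and 15.3%. By score, 55.9% of the 492 highest-scoring members overlapped both Yap active lists and 7.11% either control list, against 8.13% and 14.8% of the 492 lowest-scoring members. Within 1 kb of a start lay 57.3% of the highest-scoring and 9.35% of the lowest-scoring members. The splits by score and by distance thus partly coincide. Peaks in all 4 lists were weak: the largest −log10 q was 6.11 in Yap active R1, 5.51 in Yap active R2, 0.985 in control R1 and 1.78 in control R2, and only 44 members overlapped a Yap active R1 peak with q under 0.05.

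**Figure D2:**
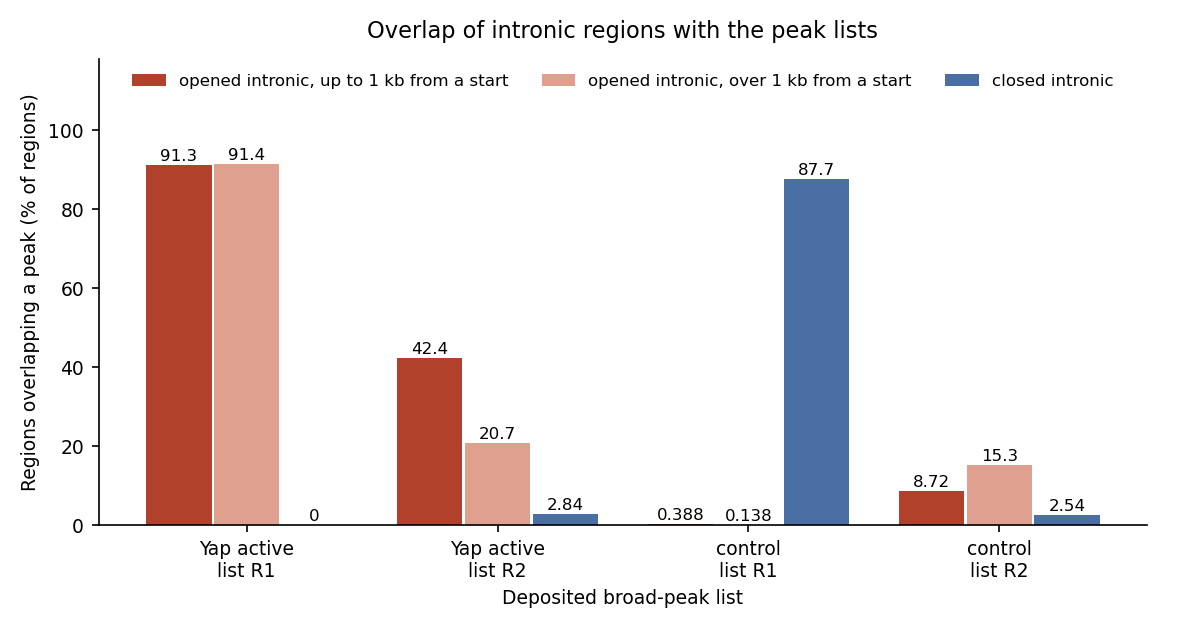
Percent of regions that overlap a broad peak by at least 1 bp in each of the 4 deposited peak lists, for opened intronic regions up to 1 kb from a start (n = 516), opened intronic regions farther away (n = 1452) and closed intronic regions (n = 669). In the lists R2, opened regions within 1 kb stand at 42.4% in Yap active and 8.72% in control, and farther regions at 20.7% and 15.3%.

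The Yap deleted lists shared few of these sites. Of the 1968 members, 10 (0.508%) overlapped a region opened in the Yap deleted line, which is 1.88% of its 532 regions, and 18 (0.915%) overlapped a region closed there, 2.66% of its 676. Members closed in the Yap deleted line lay in Smad1, a BMP signal transducer (score 30.7), Cdh1, which encodes E-cadherin (17.89), Deptor, an inhibitor of mTOR (25.5), and Tnfaip3, a brake on NF-kappaB signalling (28.55), and were named after their values were seen. The Smad1 region (chr8:79367666-79368965) lay 31153 bp from the nearest start. The Cdh1 region (chr8:106603347-106604247) lay 447 bp from it, in both Yap active peak lists and neither control list.

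The members fell in 1618 host genes, taken as the gene of the transcript whose intron HOMER names. For 1592 members (80.9%) this was also the gene with the nearest start, and for 376 another gene's start was nearer (median distance 41295 bp, against 6511.5 bp for the 1592). Of the host genes 1373 held 1 region, 184 held 2, 31 held 3, 20 held 4 and 10 held 5 to 7. Counting by nearest start instead, 228 genes held several regions, against 245 by host, and 168 were in both groups.

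Genes with several regions were long. The median length was 56.4 kb for hosts with 1 region, 174.214 kb with 2, 214.317 kb with 3, 425.549 kb with 4 and 479.985 kb with 5 or more, against 17.1 kb for the 21900 protein-coding genes of the RefSeq table. A longer gene has more intron in which a region can fall, and the part of length in these counts was not tested.

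**Figure D3:**
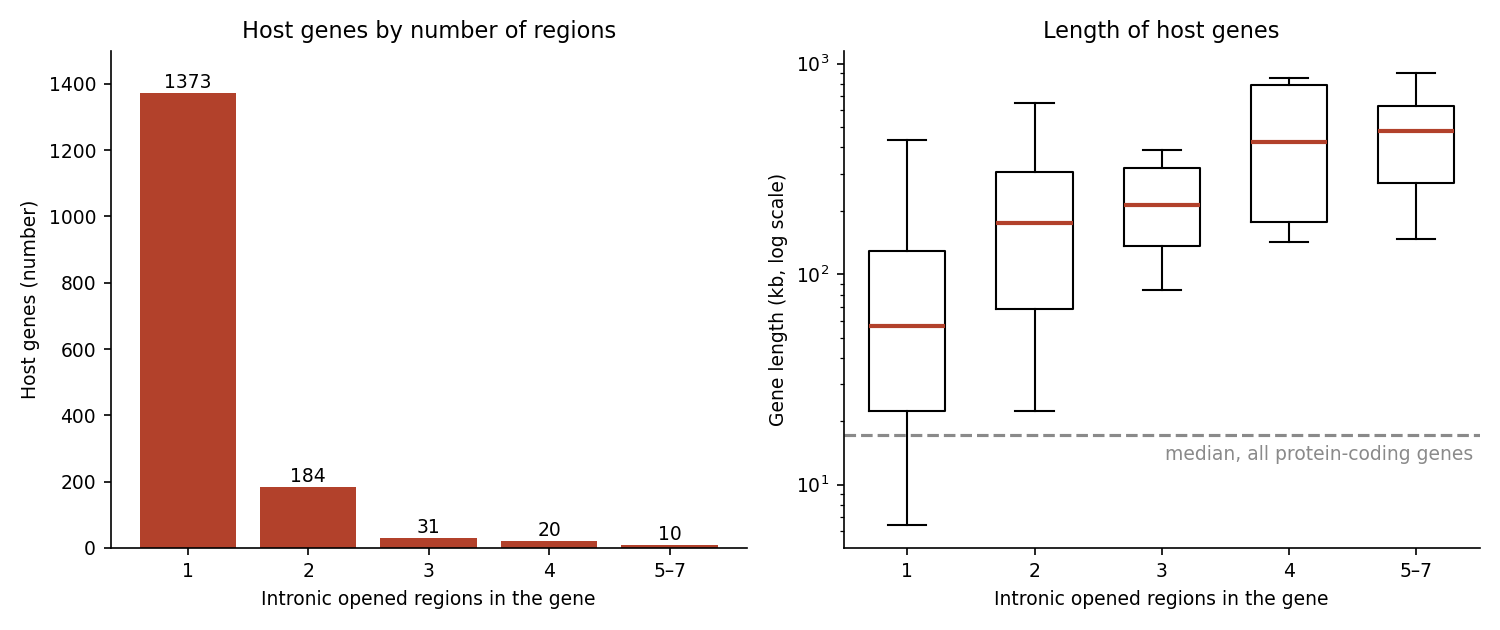
Left, number of host genes that hold 1, 2, 3, 4 or 5 to 7 intronic opened regions. Right, length of these genes in kb on a logarithmic axis, with the median in red, quartiles as the box and the 5th and 95th percentiles as whiskers, and the median of 17.1 kb over all protein-coding genes as the dashed line. Median lengths climb to 479.985 kb in the 10 genes with 5 or more regions.

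The gene with the most regions was Slc24a3, a potassium-dependent sodium and calcium exchanger, with 7 regions in 6 introns over 223.634 kb of its 474.392 kb (scores 20.6 to 66.5). The highest, in intron 6 (chr2:145533176-145533951), lay in 1 Yap active and no control list. Chrm3, the M3 muscarinic acetylcholine receptor, and Thrb, thyroid hormone receptor beta, held 6 regions each. The Chrm3 scores ran to 52.35 (chr13:9886044-9887726, intron 4) and the Thrb scores to 40.1 (chr14:17685240-17686202, intron 1). The top Chrm3 region lay in 1 Yap active and 1 control list, and the top Thrb region in both Yap active lists and neither control list.

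Deptor, Tns3 (a tensin of focal adhesions), Cdk14 (a cyclin-dependent kinase), Magi2 (a membrane scaffold of cell junctions), Firre (a long noncoding RNA of the X chromosome), Nav2 (a cytoskeleton-associated protein) and Etl4 held 5 each. Deptor combined several regions with a strong proximal one, of score 116.3 at 616 bp from the start (chr15:55111825-55114041), followed by 66.65, 35.9, 25.5 and 18.15. Magi2 was the sparsest of the 10, with 5 regions over 1116.43 kb, or 0.337 per 100 kb of gene.

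The densest hosts with 3 or more regions were a pair of noncoding X-linked loci. Firre held 6.93 regions per 100 kb and 4933407K13Rik, the transcript at the Dxz4 repeat locus, 10.2 per 100 kb with 4 regions, and this second gene was chosen after its values were seen. Both loci are known from mouse and human work as CTCF-binding tandem repeats that take part in the folding of the inactive X chromosome. All 5 Firre regions and all 4 of 4933407K13Rik overlapped a peak in Yap active R1 and in control R2, and none overlapped Yap active R2 or control R1. Of the other 58 X-linked members 93.1% overlapped Yap active R1 and 19.0% Yap active R2, against 0% in control R1 and 6.90% in control R2. Of the 1901 autosomal members 91.3% overlapped Yap active R1 and 26.8% Yap active R2, against 0.210% in control R1 and 13.4% in control R2. The sex of the ATAC libraries is not given, and its part in these overlaps was not tested.

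Hosts were also counted in lists of genes grouped by pathway and cell type. Hosts made up 6.76% of the 23476 gene names with RNA counts, and 1475 of the 15685 genes that passed the RNA filter in the Yap active line. Lists of long or well expressed genes can exceed the first share for that alone. Lung epithelial transcription factors had 10 of 43 (23.3%), Hippo components 5 of 27 (18.5%), AT1 genes 5 of 30 (16.7%), AT2 genes 5 of 30 (16.7%) and Yap and TEAD targets 4 of 25 (16.0%). The mesenchymal (20 genes), mesothelial (10), neutrophil (10), lymphocyte (12) and club and goblet (15) lists had 0 hosts, the macrophage list 1 of 15 (Fcer1g), the ciliated list 1 of 14 (Tppp3) and the endothelial list 2 of 20 (Tek and Vwf).

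Among transcription factors the strongest intronic regions lay in Klf5, a Krüppel-like factor of alveolar epithelium (score 110.95, chr14:99298610-99300208, intron 1, 718 bp from the start), and in Nfia, a nuclear factor I protein (4 regions, to 110.3, chr4:97772314-97773878). Both of these top regions lay in both Yap active lists and in neither control list. The other 3 Nfia regions had scores of 32.4, 28.35 and 23.9 and each lay in 1 Yap active list. Nkx2-1, the factor that sets lung identity, held 1 region of score 58.45 in intron 1 (chr12:56535340-56536827) that overlapped 1 Yap active and 1 control list. Klf3 (71.9), Klf13 (66.65), Rarb (44.9 and 32.35), Rora (34.05), Nfic (27.65), Tcf7l2 (24.05) and Etv4, with the lowest score, completed the list.

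In the Hippo pathway the kinase cofactor Mob1b had the highest score (117.25, 334 bp from a start), ahead of Wwtr1, which encodes the Yap relative TAZ (29.25, intron 4, chr3:57470540-57471755), and of the kinases Taok3 (18.75), Lats2 (16.65) and Map4k4 (13.9). The Mob1b region overlapped both Yap active peak lists and 1 control list, and the Wwtr1 region both Yap active lists and neither control list. The Lats2 region overlapped 0 Yap active lists and 1 control list. Of Yap and TEAD targets, Myof (65.7 and 39.1), Asap1 (63.8), Dock5 (45.4) and Lats2 held regions. The top Myof region overlapped both Yap active lists and 1 control list. The Asap1 region overlapped both Yap active lists and the Dock5 region 1, and neither region overlapped a control list. Of AT1 genes the hosts were Lmo7 (90.25), Timp3 (83.175), Col4a4 (79.55), Itgb6 (59.5) and Sema3a (40.4 and 34.15). The AT2 hosts Elovl1 (71.35), Fabp5 (56.69), Ctsh (53.85) and Rab27a (45.85) each had a region within 1 kb of a start, and Dram1 (32.45) lay farther away. In other lists the highest-scoring hosts were Erbb4 (85.9), Tek (65.2), Notch2 (57.8), Mafk (48.35), Ltbp1 (33.0) and Apc (32.95). The top Tek region and the Mafk region each overlapped 1 Yap active and 1 control list. The top Notch2 and Apc regions overlapped both Yap active lists, the Erbb4 region 1 and the top Ltbp1 region 0, without a control list. Erbb4 did not pass the RNA filter, with a mean of 0.117 CPM in Yap active and 0.159 CPM in control libraries.

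RNA played no part in the choice of regions, though per the labels the cells of a sample were divided between ATAC and RNA preparation. RNA libraries of the Yap active line held 34.98 to 43.54 M counts and those of the Yap deleted line 31.95 to 42.92 M. Counts were compared by the quasi-likelihood test of edgeR over all genes with Benjamini-Hochberg adjustment, and given as CPM, counts scaled to the TMM-adjusted size of the library. Of the Yap active line's libraries, the one labelled Yap active 1 and controls 1 to 3 stood apart from Yap active 2 to 6 and control 4 along the first principal component, which took 58.1% of the variance. The 2 sets of libraries differ in their share of Yap active libraries, so a difference between sets and one between groups cannot be fully told apart, and values within sets are given where they change a result.

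The targeted genes and the driver gave a check of the labels. Stk3 lay at 49.5, 33.8, 35.4, 32.5, 33.2 and 30.6 CPM in Yap active libraries 1 to 6, against 53.5, 50.2, 54.6 and 34.0 CPM in controls 1 to 4, so the library labelled Yap active 1 and the one labelled control 4 lay with the other group. Its log2 fold change was −0.42 ± 0.17 SE (edgeR quasi-likelihood, adjusted p = 0.366). Stk4 lay at 78.5 to 124.5 CPM in Yap active libraries, highest in library 1, against 103.2 to 120.0 CPM in controls (−0.25 ± 0.13 SE, edgeR adjusted p = 0.366), and counts over a whole gene include exons outside a floxed stretch. CreERT2 carries the hormone-binding part of the human estrogen receptor. The mouse gene Esr1 lay at 1.97 CPM in the library labelled Yap active 1 and at 211.4 to 334.8 CPM in Yap active 2 to 6, against 2.06, 160.0, 3.20 and 0.964 CPM in controls 1 to 4 (log2 fold change 2.42 ± 1.51 SE, edgeR adjusted p = 0.388). By Esr1 the libraries labelled Yap active 1 and control 2 thus ran against their labels. By Stk3 these were Yap active 1 and control 4, so the checks differed on the control.

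No host gene passed the test in the Yap active line. Of 1587 host genes with RNA counts 1475 passed the filter on low counts (92.9%, against 66.8% of all genes). The test called 0 of the 15685 tested genes at an adjusted p under 0.05 (0%), though 1981 had a raw p below 0.05. DESeq2 called 11 of the 16596 genes to which it gave an adjusted p (0.0663%), 0 of them hosts. At an unadjusted p under 0.05, 72 hosts (4.88%) were higher, against a background of 6.65% of all genes, and 97 hosts (6.58%) lower, against 5.98%. The median log2 fold change was −0.05 over hosts and −0.01 over all genes, and 44.3% of hosts against 49.4% of all genes had a positive value. 

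Host genes with more regions had lower medians. The median log2 fold change was −0.04 for 1236 tested hosts with 1 region, −0.11 for 178 with 2 and −0.16 for 61 with 3 or more, of which 18 were higher. Medians also differed by gene length and by library set, and the part of either in this order was not tested. All 781 tested genes of at least 200 kb, host or not, had a median of −0.22 and the 297 hosts among them −0.21, against 0.01 for the 13916 shorter genes. With library set as a covariate, a fit added after the data were seen, the medians were 0.01 for hosts with 3 or more regions, 0.01 for genes of at least 200 kb, 0.00 for all hosts and 0.00 for all genes. The sets were read from these same counts and largely follow the groups, so this fit cannot tell a difference between sets from one between groups. Within set 1 the hosts with 3 or more regions had a median of 0.05 (1 Yap active against 3 control libraries) and within set 2 of −0.10 (5 against 1). Hosts with a region within 1 kb of a start had a median of −0.02 and the other hosts −0.07.

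**Figure D4:**
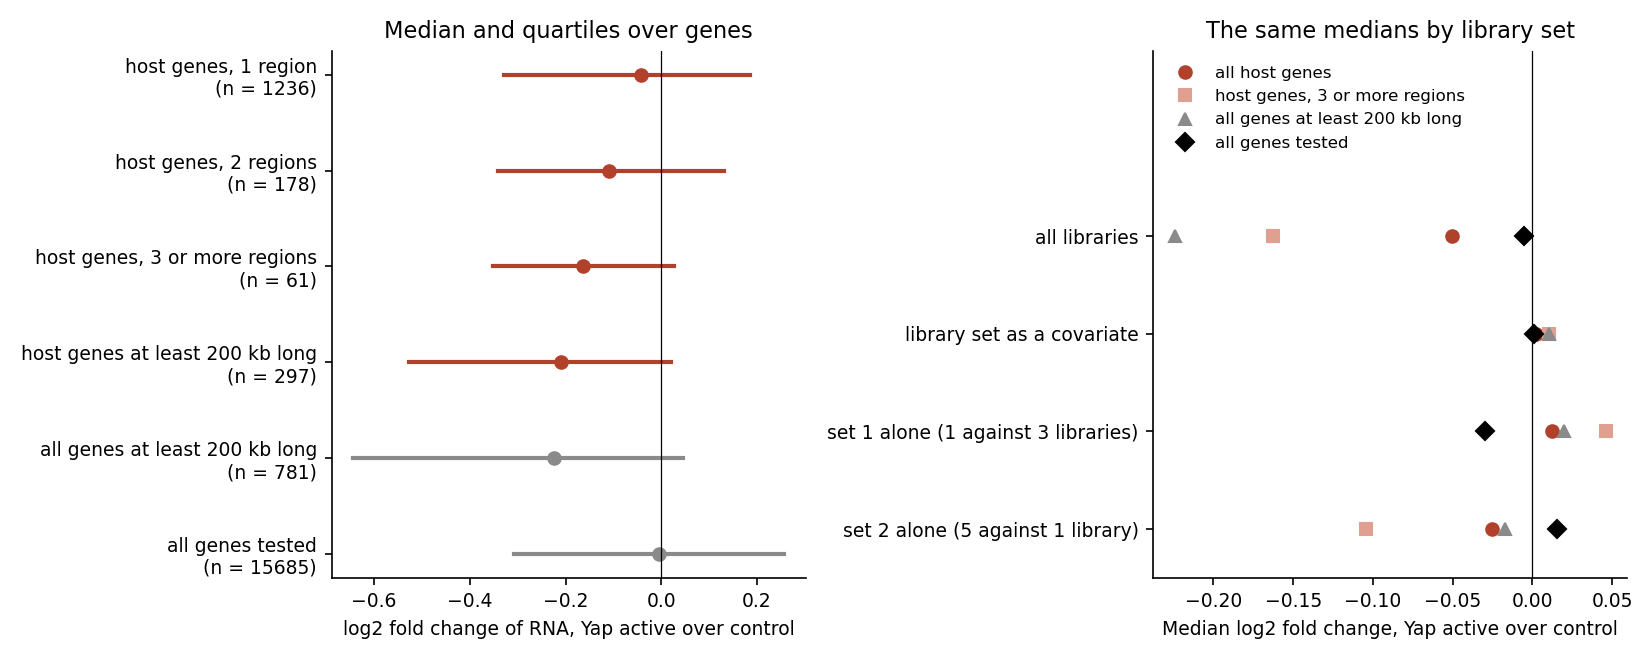
Left, median (point) and quartiles (line) of the log2 fold change of RNA, Yap active over control, for host genes in red and other gene groups in grey. Right, medians of 4 gene groups with all libraries, with library set as a covariate, and within each set. The median of hosts with 3 or more regions is −0.16 with all libraries and 0.01 with the covariate, and the median of all genes of at least 200 kb moves with it (−0.22 and 0.01).

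Of the 10 hosts of the highest-scoring regions, 8 had a negative and 2 a positive log2 fold change, from −0.56 to 0.44. Their edgeR adjusted p ran from 0.366 to 0.954. Groups that did not overlap were found for 0 of the 10, and for 148 of all 15685 tested genes (0.944%). Nmt2, with the strongest intronic region, lay at 20.7 to 23.6 CPM in Yap active libraries (median 21.7), against 22.3, 22.02, 20.8 and 25.5 CPM in controls 1 to 4. The groups overlapped, with a log2 fold change of −0.05 ± 0.10 SE (edgeR adjusted p = 0.768). Lratd1 averaged 25.4 ± 6.03 CPM in Yap active libraries (SD, n = 6) and 30.9 ± 13.5 CPM in control libraries (SD, n = 4), as all means below are given (−0.28 ± 0.29 SE, edgeR adjusted p = 0.554).

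Xpo1 lay at 52.4 to 80.4 CPM in Yap active libraries, against 103.4, 116.5, 96.5 and 60.0 CPM in controls 1 to 4 (−0.56 ± 0.18 SE, edgeR adjusted p = 0.366). Control 4 alone lay within the Yap active range, and within set 2, where it is the only control, the value was 0.01. Ppp2r1a lay at 119.9 CPM in Yap active 1 and 192.9 to 219.9 CPM in Yap active 2 to 6, against 115.6, 137.9, 111.4 and 208.0 CPM in controls 1 to 4 (0.44 ± 0.22 SE, edgeR adjusted p = 0.366). For Ppp2r1a, Yap active 1 lay within the range of the controls other than control 4, and control 4 within that of Yap active 2 to 6. With library set as a covariate its log2 fold change was −0.01. The sets were read from these same counts and largely follow the groups, so this fit cannot tell a difference between sets from one between groups.

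Of the 10 genes with the most regions 9 had a negative log2 fold change, from −0.47 to 0.16, with edgeR adjusted p from 0.366 to 0.933 and groups that overlapped for each of the 10. Slc24a3 lay at 41.5, 29.8, 34.5, 31.6, 30.1 and 25.8 CPM in Yap active libraries 1 to 6, against 39.6, 35.1, 31.1 and 38.6 CPM in controls 1 to 4 (−0.16 ± 0.14 SE). The 7 opened regions of this gene came with RNA levels that overlapped between groups. Chrm3 was barely expressed, at 1.301 ± 0.608 CPM in Yap active and 1.51 ± 0.599 CPM in control libraries (−0.22 ± 0.41 SE), though it held 6 regions. Thrb averaged 21.1 ± 4.41 CPM in Yap active and 26.9 ± 7.44 CPM in control libraries (−0.35 ± 0.22 SE).

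Deptor lay at 93.7 to 165.1 CPM in Yap active libraries (median 121.6), against 105.0, 201.4, 145.8 and 142.0 CPM in controls (−0.27 ± 0.20 SE). Tns3 averaged 397.4 ± 119 CPM in Yap active and 546.1 ± 161 CPM in control libraries (−0.46 ± 0.25 SE), and with library set as a covariate its log2 fold change was 0.04. Cdk14 averaged 59.6 ± 14.2 and 73.8 ± 13.5 CPM in the same order (−0.31 ± 0.18 SE, and 0.04 with the covariate), and Magi2 18.6 ± 3.55 and 24.0 ± 2.67 CPM (−0.37 ± 0.16 SE). Firre lay at 105.8 to 152.9 CPM in Yap active libraries, against 203.0, 218.5, 171.4 and 137.7 CPM in controls 1 to 4 (−0.47 ± 0.16 SE). Only control 4 lay inside the Yap active range, and Firre was the lowest of the 10 in fold change. Nav2 averaged 229.1 ± 42.2 CPM in Yap active and 204.9 ± 60.8 CPM in control libraries (0.16 ± 0.20 SE, and −0.12 with the covariate), and Etl4 89.3 ± 10.2 and 90.7 ± 16.2 CPM (−0.02 ± 0.14 SE).

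Xist, the RNA that coats the inactive X, was looked at after the X-linked regions had been seen. It lay at 756.5, 249.3, 313.3 and 481.4 CPM in Yap active libraries 1, 2, 3 and 6 and at 2.30 and 1.151 CPM in 4 and 5, against 445.6 CPM in control 4 and 1.70 to 2.60 CPM in controls 1 to 3. In the libraries with little Xist, Firre RNA lay at 149.1 and 130.9 CPM in Yap active 4 and 5, against 171.4 to 218.5 CPM in controls 1 to 3. In those with Xist it lay at 105.8 to 152.9 CPM in Yap active 1, 2, 3 and 6, against 137.7 CPM in control 4. The 4933407K13Rik transcript lay at 2.61 to 5.53 CPM in Yap active and 3.22 to 6.08 CPM in control libraries.

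Among transcription factors the 2 with the strongest intronic regions had fold changes of opposite sign. Klf5 lay at 80.1, 171.0, 121.9, 172.7, 142.7 and 121.2 CPM in Yap active libraries 1 to 6, against 54.3, 80.2, 52.8 and 141.5 CPM in controls 1 to 4 (0.72 ± 0.31 SE, edgeR adjusted p = 0.366). Yap active 1 lay at the level of control 2, and control 4 among the other Yap active libraries. Nfia lay at 158.2 CPM in Yap active 1 and 91.2 to 115.6 CPM in Yap active 2 to 6, against 172.1, 135.0, 172.9 and 128.6 CPM in controls 1 to 4 (−0.45 ± 0.17 SE, edgeR adjusted p = 0.366). Yap active 1 alone lay within the control range. Nkx2-1 averaged 1176 ± 238 CPM in Yap active and 926.9 ± 208 CPM in control libraries (0.34 ± 0.20 SE, edgeR adjusted p = 0.376). The 8 transcription factor hosts named by rule ran from −0.45 to 0.72, with 4 higher and 4 lower.

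**Figure D5:**
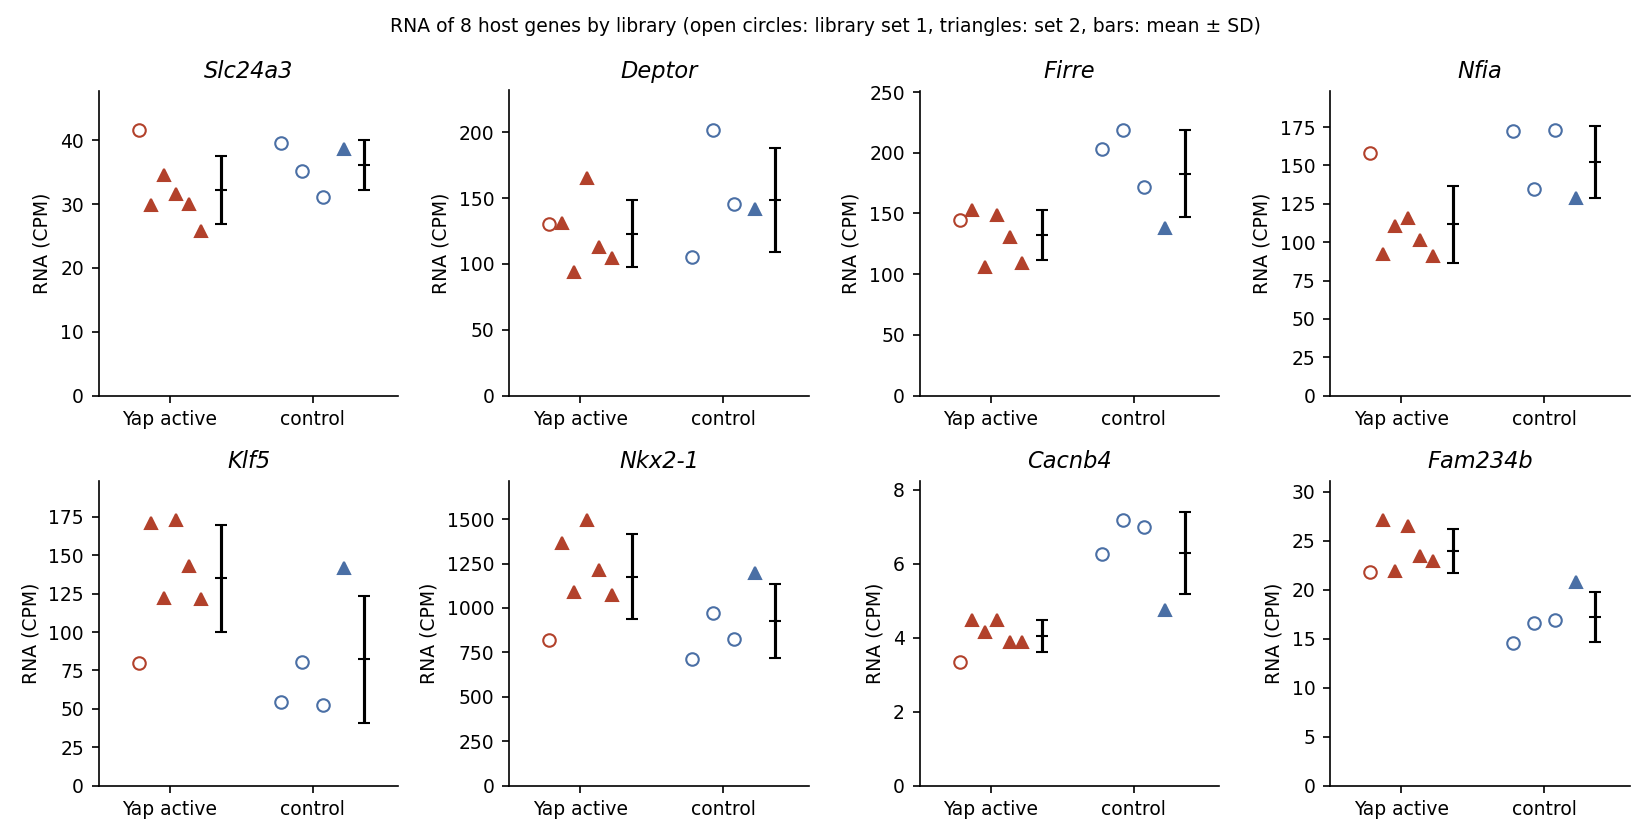
RNA of 8 host genes in CPM in each Yap active (left, n = 6) and control (right, n = 4) library, with library set 1 as open circles, set 2 as triangles, and the mean ± SD as bars. Fam234b and Cacnb4, which were chosen for their small p-values, have groups that do not overlap. For Klf5 and Nkx2-1 Yap active 1 lies among the controls and control 4 among the Yap active libraries.

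Hosts from the Yap, Hippo and AT1 lists stayed within the spread between libraries. Wwtr1 averaged 174.6 ± 26.3 CPM in Yap active and 191.8 ± 7.60 CPM in control libraries (−0.14 ± 0.12 SE, edgeR adjusted p = 0.517). Myof averaged 134.6 ± 22.9 and 123.2 ± 13.1 CPM (0.13 ± 0.14 SE, adjusted p = 0.581), and the 4 hosts from the Yap and TEAD targets ran from −0.65 to 0.13. Lmo7 averaged 396.7 ± 126 and 384.5 ± 153 CPM (0.04 ± 0.29 SE, adjusted p = 0.936). Timp3 lay at 1364 CPM in Yap active 1 and 481.3 to 626.8 CPM in Yap active 2 to 6, against 835.4, 1498, 814.0 and 801.2 CPM in controls 1 to 4 (−0.50 ± 0.32 SE, edgeR adjusted p = 0.392). The libraries labelled Yap active 1 and control 2 had the highest Timp3 of their groups. The 5 AT1 hosts ran from −0.50 to 0.43, with 4 higher.

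Whole lists gave no called gene either. Of 25 Yap and TEAD target genes tested 0 were called, with 9 higher and 16 lower (median −0.13). Of 30 AT1 genes 0 were called, with 22 higher (median 0.13), and of 43 transcription factors 0, with 28 higher (median 0.16). Of markers of other cell types, macrophage genes went both ways (7 higher, 7 lower). So did ciliated (6 and 8), neutrophil (3 and 5) and lymphocyte genes (3 and 4). Endothelial and mesothelial markers moved with the groups and with the library sets. Summed endothelial markers ran from 44.6 to 311.8 CPM in Yap active and from 111.2 to 610.9 CPM in control libraries, with 19 of 19 tested genes lower, and Pecam1 at 0.791 to 14.6 CPM in Yap active, against 0.937 to 41.6 CPM in control libraries. Summed mesothelial markers ran from 143.8 to 1011 CPM in Yap active and from 506.9 to 1271 CPM in control libraries. For both lists Yap active 1 was the highest Yap active library and control 4 the lowest control, so each lay nearest to the other group. Their part in the fold changes of host genes was not tested, and in bulk libraries fewer cells of a type and less RNA per cell cannot be told apart. AT2 markers, the labelled cell type, summed to 72783.5 to 190436 CPM in Yap active libraries (median 148780) and 73936.7 to 188557 CPM in control libraries (median 98449), with Yap active 1 the lowest of its group and control 4 the highest of its own. Of 30 AT2 genes 28 were higher (median 0.37) and 0 called, and of 19 tested transitional alveolar cell genes 18 were higher (median 0.62) and 0 called.

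The hosts with the smallest p-values in each direction did not pass adjustment, each at an edgeR adjusted p of 0.366. They were chosen by p-value, so groups that do not overlap among them follow in part from the choice. Such groups were found for 148 of all 15685 tested genes (0.944%). Higher in Yap active libraries were Fam234b (23.9 ± 2.29 CPM in Yap active against 17.2 ± 2.58 CPM in control libraries, log2 fold change 0.48 ± 0.13 SE), Tmem51 (0.64 ± 0.18 SE), Plxnb2, a semaphorin receptor (0.59 ± 0.18 SE), Shb, an adaptor of tyrosine kinase signalling (0.53 ± 0.16 SE), and Ptgs1, the cyclooxygenase COX-1 (0.67 ± 0.21 SE). For Fam234b every Yap active library, at 21.8 to 27.1 CPM, lay above every control, at 14.6 to 20.7 CPM. Ptgs1 lay at 241.1 to 285.2 CPM in Yap active libraries, against 135.6, 134.4 and 128.3 CPM in controls 1 to 3 and 268.0 CPM in control 4. Without control 4 its log2 fold change was 1.01 (edgeR adjusted p = 0.0190), the single host called in a leave-out of 1 library in this line. Control 4 is the only control of library set 2, so without it group and library set nearly coincide. In that fit 5541 of 15913 genes had a raw edgeR p below 0.05, against 1981 of 15685 with all libraries. The Ptgs1 region (chr2:36234452-36235878, score 37.65) lay in intron 2, 4739 bp from the nearest start.

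Lower in Yap active libraries were Impact, an imprinted regulator of the amino acid stress kinase GCN2 (12.6 ± 3.25 CPM in Yap active against 25.6 ± 7.70 CPM in control libraries, −1.02 ± 0.24 SE), Acer2, a ceramidase (−1.27 ± 0.33 SE), Cacnb4, a calcium channel subunit (−0.64 ± 0.17 SE), Ccdc152 (−1.25 ± 0.36 SE) and Zfhx4, a homeobox factor (−1.28 ± 0.37 SE). The DESeq2 adjusted p of Impact was 0.0813, the lowest of the hosts with printed values. Its region had a score of 210.2 and lay 1514 bp from the start, in both Yap active lists and neither control list, so RNA and opened region stood in opposite directions. Cacnb4 held 3 regions (scores 95.75, 29.75 and 20.55), and its RNA lay at 3.34 to 4.49 CPM in Yap active libraries, below every control at 4.74 to 7.17 CPM. Ccdc152 lay at 0.408 to 1.297 CPM in Yap active libraries, below every control at 1.74 to 2.49 CPM. For Cacnb4 and Ccdc152 too the separation follows in part from their choice by p-value. Ccdc152 overlaps Selenop, and since the counting is not stated to use strand, reads of the pair cannot be told apart.

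In the Yap deleted line edgeR called no host and DESeq2 called 59. The check gene Yap1 lay at 78.3 to 141.6 CPM in Yap deleted libraries, against 118.6 to 214.7 CPM in controls (log2 fold change −0.78 ± 0.22 SE, edgeR adjusted p = 0.247). Of 15818 genes edgeR called 1 (0.00632%), Trim12a, which is no host. DESeq2 called 871 of the 17363 genes to which it gave an adjusted p (5.02%), 704 of them lower. Of 1576 hosts with a DESeq2 p it called 59, against 871 of 19654 genes with one. Controls 1 and 2 lay at 98.2 and 123.2 along the first principal component, and controls 3 and 4 at −45.5 and −18.4. The Yap deleted libraries ran from −59.1 to −10.7. Summed endothelial markers ran from 133.4 to 235.2 CPM in Yap deleted libraries and from 209.1 to 4031 CPM in controls. The part of these controls in the calls was not tested. At an unadjusted p under 0.05, 71 hosts (4.83%) were higher, against 6.13% of all genes, and 122 (8.30%) lower, against 9.18%. The median over 1470 tested hosts was −0.02, and over all genes 0.01. The 10 genes with the most regions ran from −0.66 to 0.31, with 5 higher and edgeR adjusted p from 0.324 to 0.878. Slc24a3 averaged 29.7 ± 9.79 CPM in Yap deleted and 34.7 ± 8.35 CPM in control libraries, Klf5 124.8 ± 20.1 and 108.9 ± 67.6 CPM, and Nfia 115.7 ± 20.1 and 173.4 ± 70.1 CPM. Whether the change of a host differs between the lines was not tested.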

How the data were processed

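ATAC-seq and RNA-seq were measured in the same 2 mouse lines, and the members and gene lists were chosen with earlier results of these data known. Per the submitters' processing notes, reads were handled with Trim Galore, Bowtie2, Cufflinks, DESeq and HOMER on build mm10, and versions, the counting program and the gene annotation are not given in the sources used here. The region lists hold the score that the authors' HOMER output gives each region, on a scale that is not stated. The deposited peak lists hold a fold enrichment, and a −log10 q, for each peak. The authors deposited whole-number counts per gene, with no normalization.

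The host gene of a region was the gene of the RefSeq transcript named in its annotation (1963 of 1968 matched). Overlaps of at least 1 bp were counted with bedtools 2.31.1. Counts with at least the default minimum of edgeR's filterByExpr were TMM-scaled and tested with edgeR 4.0.16 (quasi-likelihood, Benjamini-Hochberg threshold 0.05, all libraries of 1 line, R 4.3.3), with DESeq2 1.42.0 as an alternative. Other alternatives were RLE scaling, no filter, a replicate block, leaving out libraries, and nearest-start, top-scoring and 50 kb member sets. On simulated counts the Yap active test recovered 42 of 100 genes changed 2-fold and 93 of 100 changed 4-fold among 15482, with 6 unchanged genes called in all, and the Yap deleted test 25 and 70 among 15654, with 4. The simulated counts varied independently around a common mean per gene, without library sets or libraries against their label. These recoveries therefore need not hold for the real libraries.

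The named genes were the 10 hosts with the highest scores, the 10 with the most regions, up to 8 hosts per list by score, and the 5 with the smallest p in each direction at a mean of at least 1 CPM. No column of per-sample values was left unused (0). Among the gene names of either line 27 had turned into dates and 2 names were repeated, and the closest pair of libraries differed by a chi-square of 51.1 per gene in the Yap active line and 84.8 in the Yap deleted line. Replicate numbers did not pair the samples. Library totals are given with the RNA results. Peak lists give no depth. Results of some genes and of 1 gene list are not reported here.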

Additional observations from a re-analysis of the deposited data

Results flagged for a closer look

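In 13 of 100 groups of libraries checked, over the genes with printed values, 1 library stood apart from the rest of its group by Dixon's test. Chance flags about 1 in 20 independent groups. Here the same libraries recur from gene to gene, and some genes were chosen by p-value, so the 2 rates make no test. The library labelled Yap active 1 did so for 8 genes. It was low for Ppp2r1a (119.9 CPM, against 192.9 to 219.9 CPM in the other 5) and for Esr1 (1.97 CPM). It was high for Cdk14 (88.0 CPM), Stk3 (49.5 CPM), Stk4 (124.5 CPM), Nfia (158.2 CPM), Timp3 (1364 CPM) and Impact (19.0 CPM).

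The library labelled control 2 of the Yap active line was high for Esr1 (160.0 CPM) and Timp3 (1498 CPM). Control 4 of that line was high for Ptgs1 (268.0 CPM) and low for Impact (14.2 CPM). In the Yap deleted line control 2 was high for Esr1 (87.1 CPM). What sets these libraries apart was not tested.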

How the results depend on the processing

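No host gene was called by edgeR in the Yap active line with all libraries, under RLE scaling, without a filter, with the replicate block or with library set as a covariate. The number of genes called moved from the 0 found by edgeR with all libraries to 11 with DESeq2, to 0 to 2 on leaving out 1 library (2 without Yap active 1, 2 without control 4), to 13 without Yap active 1 and control 2 together and to 7 within library set 1. The library sets were chosen after seeing the data, and in each set 1 group has a single library that is assumed to vary like the others. Of the hosts, those settings called Ptgs1 (1.01, adjusted p = 0.0190, without control 4), Ephx1 (1.48, adjusted p = 0.0316) and Gdf15 (3.91, adjusted p = 0.00366) without Yap active 1 and control 2, and Dbp (−1.98, adjusted p = 0.0177) within set 1, the last 3 named after their values were seen. In the Yap deleted line 871 genes were called with DESeq2 and 0 to 4 on leaving out 1 library, the 4 without control 4 and with Elf4 as the host among them (−1.60, adjusted p = 0.0395). The causes of these differences were not tested.

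The replicate numbers are shared between groups, but same-numbered libraries did not deviate together in every pair (correlations 0.52, 0.01, 0.05 and 0.49 in the Yap active line, and −0.25, 0.44, 0.26 and 0.29 in the Yap deleted line). With the replicate block 0 genes were called in the Yap active line and 0 in the Yap deleted line, and the log2 fold changes of Chrm3 (0.10) and Etl4 (0.026) changed sign.

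The median over hosts was 0.01 within library set 1 and ran from −0.08 to −0.03 on leaving out 1 Yap active line library, and from −0.07 to 0.01 in the Yap deleted line. Values that changed sign with library set as a covariate were Lratd1 0.23, Ppp2r1a −0.0080, Chrm3 0.32, Thrb 0.029, Tns3 0.038, Cdk14 0.041 and Nav2 −0.12. Within set 1 they were Nmt2 0.12, Ppp2r1a −0.020, Slc24a3 0.24, Chrm3 0.12, Tns3 0.022, Cdk14 0.14, Etl4 0.18, Stk4 0.22, Wwtr1 0.22, Nkx2-1 −0.033, Esr1 −4.80 and Timp3 0.38. Within set 2 they were Lratd1 0.72, Xpo1 0.012, Chrm3 0.52, Thrb 0.25, Tns3 0.053, Nav2 −0.30, Myof −0.12 and Lmo7 −0.49. On leaving out 1 library Nmt2 ran from −0.090 to 0.022, Lratd1 from −0.51 to 0.0028, Chrm3 from −0.41 to 0.051, Etl4 from −0.13 to 0.071 and Lmo7 from −0.13 to 0.25. Without Yap active 1 and control 2 Etl4 was 0.0085 and Esr1 6.99. Asking for 50% of a region to overlap a peak left 4.17% and 0.102% of members in the Yap active lists and 0% and 0.407% in the control lists, since the peaks are shorter than the regions. Motif shares over whole regions were not run for want of a genome.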

Other observations

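Some hosts lost accessible intron as well as gaining it: of hosts with 1 opened intronic region 81 of 1373 (5.90%) also held a closed intronic region in the Yap active line, and of hosts with several 20 of 245 (8.16%). An opened promoter region stood beside the intronic one in 125 (9.10%) and 36 (14.7%) of the same groups. The median length of the hosts was 56.4 kb with 1 region and 194.4 kb with several. These shares were not counted over all genes or genes of like length, and the part of length in them was not tested. By chromosome, intronic regions were 23.6% of the opened regions of chromosome 9 and 38.1% of those of chromosome 15.

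Among gene lists with few or no hosts, club and goblet cell markers stood at a median log2 fold change of 0.95, with 15 of 15 genes higher in Yap active libraries, 10 at an unadjusted p under 0.05 (6.65% of all genes were higher at that p) and 0 called by edgeR. Their summed level ran from 6776 to 21353 CPM in Yap active libraries (median 15797.5) and from 4315 to 12933 CPM in control libraries (median 5511). Yap active 1 was the lowest of its group and control 4 the highest of its own. Mesenchymal markers stood at −0.60, with 17 of 20 genes lower and 0 called. Their sums ran from 4835 to 27079 CPM in Yap active libraries, with Yap active 1 above every control, and from 10069 to 22586 CPM in control libraries, with control 4 the lowest.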
